A study of Mus musculus with 8 samples.

Results

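The neutrophil genes S100a8, S100a9, Mmp8, Mmp9, Csf3r, Retnlg, Ngp, Camp, Cxcr2 and Mpo were examined in whole lungs of mouse fetuses with and without tracheal occlusion (TO). These 10 genes were chosen as granule, cytosolic and receptor genes of neutrophils with their TO against control values in these libraries already known, so those values are given as a description, with no test. Each was found by its symbol at 1 of the 55385 gene IDs of the count tables, and 9 of the 10 had enough read pairs to be tested, Mpo being the exception. Lungs of 4 control and 4 TO fetuses of the strain C57BL/6 were collected at E18.5, and they are named here control 1 to 4 and TO 1 to 4. In TO fetuses the trachea had been tied off 2 days before, at E16.5, by a suture passed through the wall of the uterus that also took in a carotid artery and a jugular vein, and progesterone was given the day after the operation. The labels describe no operation or treatment in the control fetuses, no genotype, and no litter, so p-values measure only the spread between these samples. Lungs were taken whole, so fewer cells of a type and less RNA per cell cannot be told apart.

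Neutrophils are short-lived phagocytes that build their granules in order as they mature. Azurophil granules, which carry Mpo and the serine proteases, are filled in promyelocytes, specific granules with Ngp, Camp and Mmp8 follow in myelocytes, and gelatinase granules with Mmp9 come last, together with the cytosolic calprotectin pair S100a8 and S100a9 and the receptors Csf3r and Cxcr2 of mature cells. The transcription factors of the C/EBP family and PU.1 drive these programmes. In the late fetus granulocytes are made mainly in the liver, and some of these genes are also used by monocytes.

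Promoter sequence is shown for 6 members. In S100a8, S100a9, Mmp8 and Retnlg the TO libraries reached the furthest above the controls among the genes with a sequence and more than a few read pairs. Ngp, which had a smaller log2 fold change in the same direction, and Mpo, which was counted mainly in controls, are shown beside them. RefSeq windows from 250 bases before to 50 bases after the start of the gene (build GRCm38.p6) were matched for 9 members, and Mmp9 had none. The stretches printed end before the first base of the gene in both RefSeq and GENCODE, and read 5′ to 3′ on the strand of the gene. They lie at chr3:90668821-90668977 (plus strand) for S100a8, chr3:90695722-90695971 (minus strand) for S100a9, chr9:7558179-7558428 (plus strand) for Mmp8, chr16:48872358-48872607 (plus strand) for Retnlg, chr9:110419558-110419746 (plus strand) for Ngp and chr11:87793534-87793580 (plus strand) for Mpo. Capitals mark matches on either strand to TTNCNNAA, a short form of the C/EBP motif, and to GAGGAA, the core of the PU.1 motif.
S100a8: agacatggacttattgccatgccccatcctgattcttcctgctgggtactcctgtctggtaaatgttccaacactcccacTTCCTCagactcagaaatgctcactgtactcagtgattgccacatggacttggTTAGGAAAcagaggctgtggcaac
S100a9: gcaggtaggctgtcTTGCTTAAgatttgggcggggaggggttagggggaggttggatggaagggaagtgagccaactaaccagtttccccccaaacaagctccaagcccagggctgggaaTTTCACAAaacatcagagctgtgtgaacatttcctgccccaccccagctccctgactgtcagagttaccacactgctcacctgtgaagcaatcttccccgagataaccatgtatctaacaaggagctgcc
Mmp8: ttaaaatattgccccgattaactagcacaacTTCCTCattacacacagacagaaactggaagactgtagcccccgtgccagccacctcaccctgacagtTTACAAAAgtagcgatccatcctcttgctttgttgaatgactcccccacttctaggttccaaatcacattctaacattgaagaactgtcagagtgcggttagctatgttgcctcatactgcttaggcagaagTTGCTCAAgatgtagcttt
Retnlg: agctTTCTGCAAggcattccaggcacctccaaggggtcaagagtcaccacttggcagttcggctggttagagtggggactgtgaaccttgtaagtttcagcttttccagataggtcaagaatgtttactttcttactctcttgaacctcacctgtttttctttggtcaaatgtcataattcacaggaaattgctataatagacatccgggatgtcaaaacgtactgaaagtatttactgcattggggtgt
Ngp: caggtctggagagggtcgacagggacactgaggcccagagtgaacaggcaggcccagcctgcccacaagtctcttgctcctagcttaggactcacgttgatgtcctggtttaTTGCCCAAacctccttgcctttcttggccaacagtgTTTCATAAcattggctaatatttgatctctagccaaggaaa
Mpo: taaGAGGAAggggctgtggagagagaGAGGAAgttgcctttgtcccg

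The C/EBP letters were present in the windows of 5 of the 9 members (S100a8, S100a9, Mmp8, Ngp and Retnlg), and in 40.68% of all 32851 windows of the table. The PU.1 letters were present in 5 of the 9 (S100a8, Mmp8, Csf3r, Cxcr2 and Mpo), and in 28.28% of all windows. The letters TATAAA, on either strand, were present in 3 (S100a8, S100a9 and Mmp8), and in 13.62% of all windows. In each case they fell outside the stretch printed. For S100a9 and Mmp8 that stretch holds all 250 bases before the RefSeq start. Their matches therefore reach past that start, and no match is called a TATA box here. S100a8 and Mmp8 were the members with all 3 motifs, and Camp had none. S100a8 and S100a9 are neighbours, 22596 bases apart on chromosome 3. Ngp and Camp, which both belong to the cathelin-related proteins, lie 570129 bases apart on chromosome 9.

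Read pairs counted on genes numbered 22822261 to 35002061 in 7 of the libraries and 270078 in TO 1, where 1 read pair amounts to 3.43 CPM (the normalized read count of edgeR, scaled by TMM to library size) and where 3 read pairs, the limit that a count of 0 allows, come to 10.3 CPM. In the other libraries that limit lay between 0.0853 and 0.131 CPM. Controls 1, 2 and 4 and TO 2, 3 and 4 were fitted first, since their specimen names are those in the published plots, and control 3 and TO 1 were added afterwards. The 9 lung epithelium markers summed to between 8160 and 18091 CPM in the deep libraries and 6174 CPM in TO 1. Hepatocyte markers summed to 882 CPM in control 1 and 377 CPM in TO 4, and to 2.60 to 32.1 CPM in the other deep libraries. TO 1 stood apart from the rest in its lymphocyte markers, which summed to 165 CPM against at most 11.9 CPM elsewhere. Ly6g and Cxcr1, both surface markers of mouse neutrophils that are named here after their values were seen, had 0 read pairs in all 8 libraries. Read pairs that mapped to several places, 3.76% to 4.28% of each library, were not counted on genes. Whether this bears on these counts of 0 was not tested, and they are not read as absence. The 10 genes are described as neutrophil genes, and no number of neutrophils is inferred from them.

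S100a8 and S100a9 encode the subunits of calprotectin, an abundant cytosolic protein of neutrophils. S100a8 (ENSMUSG00000056054.9, chr3:90668978-90670035) stood at 9.32, 8.55, 5.30 and 4.45 CPM in controls 1 to 4, from 110 to 263 read pairs. It stood at 11.0 CPM in TO 2, 26.1 CPM in TO 3 and 41.6 CPM in TO 4, from 380, 632 and 1464 read pairs. Every deep TO library was above every control, although TO 2 exceeded control 1 by little. In TO 1 the 4 read pairs of S100a8 gave 13.7 CPM, with an exact 95% Poisson interval from 3.74 to 35.2 CPM that covers counting error only, as all such intervals here. The log2 fold change of S100a8 was 1.82 (SE 0.46) in the 6 libraries.

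S100a9 (ENSMUSG00000056071.12, chr3:90692632-90695721) stood at 14.9, 13.0, 11.2 and 6.39 CPM in controls 1 to 4. In TO 2, 3 and 4 it stood at 12.1, 42.4 and 61.7 CPM, from 420, 1027 and 2169 read pairs. TO 2 lay within the controls, and TO 3 and TO 4 far above them, so that the groups overlapped. TO 1 held 9 read pairs of S100a9, or 30.9 CPM (interval 14.1 to 58.7 CPM). The log2 fold change of S100a9 was 1.76 (SE 0.53). The ratio of S100a9 to S100a8 within a library was 1.44 to 2.12 in the controls and 1.11 to 1.63 in TO 2, 3 and 4.

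**Figure D1:**
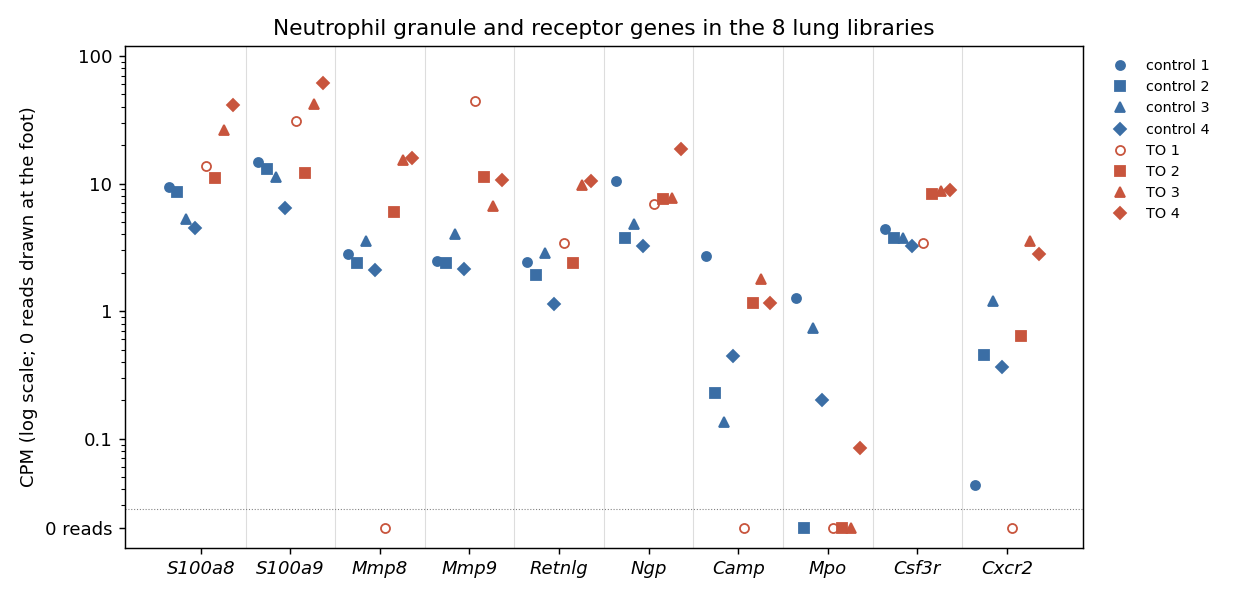
CPM of each of the 10 genes (log scale) in each of the 8 libraries, with controls in blue, TO in red, a marker shape for each replicate number and the shallow TO 1 as open circles; libraries with 0 read pairs are drawn at the foot. For S100a8, Mmp8, Mmp9 and Csf3r the filled TO markers all lie above the 4 controls, and for Mpo the controls reach higher.

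Mmp8, the neutrophil collagenase of specific granules, and Mmp9, the gelatinase that names the last granules, were low in all controls. Mmp8 (ENSMUSG00000005800.3, chr9:7558456-7568485) stood at 2.80, 2.41, 3.52 and 2.10 CPM in controls 1 to 4 and at 5.96, 15.3 and 15.9 CPM in TO 2, 3 and 4. The groups did not overlap in these 7 libraries, and the log2 fold change of Mmp8 was 2.34 (SE 0.38), the largest among the members with more than 20 read pairs in every deep library. No read pair of Mmp8 was counted in TO 1, which allows up to 10.3 CPM there.

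Mmp9 (ENSMUSG00000017737.2, chr2:164940780-164955850) stood at 2.50, 2.41, 4.06 and 2.14 CPM in controls 1 to 4. It was at 11.2, 6.69 and 10.7 CPM in TO 2, 3 and 4, and at 44.6 CPM in TO 1, from 13 read pairs (interval 23.8 to 76.3 CPM). Mmp9 was thus above every control in all 4 TO libraries, and its log2 fold change was 2.02 (SE 0.29). Among the 9 tested members it alone was highest in TO 2 of the deep libraries, where S100a9 and Retnlg were at control level.

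Retnlg encodes a resistin-like protein secreted by mature neutrophils. Retnlg (ENSMUSG00000022651.6, chr16:48872621-48874496) stood at 2.41, 1.92, 2.85 and 1.13 CPM in controls 1 to 4 and at 2.40, 9.67 and 10.6 CPM in TO 2, 3 and 4. TO 2 lay within the controls, as for S100a9, and the log2 fold change of Retnlg was 2.05 (SE 0.55). In TO 1 there was 1 read pair.

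Ngp and Camp separated the groups less than Mmp8, which belongs to the same specific granules. Ngp (ENSMUSG00000032484.8, chr9:110419747-110423012), the neutrophilic granule protein, stood at 10.5, 3.77, 4.80 and 3.23 CPM in controls 1 to 4. It stood at 7.63, 7.69 and 18.6 CPM in TO 2, 3 and 4, from 264, 186 and 656 read pairs. Control 1 was second only to TO 4 among the deep libraries, so the groups overlapped, and the log2 fold change of Ngp was 0.97 (SE 0.51). The hepatocyte markers were highest in these same libraries, control 1 and TO 4, and their part in the level of Ngp was not tested. S100a8, S100a9 and Csf3r were likewise highest in control 1 among the controls and in TO 4 among the deep TO libraries. With controls 2, 3 and 4 against TO 2 and 3, a comparison chosen after seeing the data, the log2 fold change of Ngp was 0.96 (SE 0.33). Leaving out 1 of the 6 libraries at a time gave values from 0.40, without TO 4, to 1.69, without control 1.

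Camp (ENSMUSG00000038357.10, chr9:109847379-109849617), the cathelicidin antimicrobial peptide, had few read pairs. It stood at 2.71, 0.228, 0.134 and 0.445 CPM in controls 1 to 4, from 62, 7, 4 and 11 read pairs. In TO 2, 3 and 4 it stood at 1.16, 1.78 and 1.17 CPM, from 40, 43 and 41 read pairs. The 3 TO libraries were close together and lay between control 1 and the other controls. The log2 fold change of Camp was 0.28 (SE 0.83), and leaving out 1 library at a time gave values from -0.21, without control 2, to 2.02, without control 1. It was also below 0 without control 4, at -0.095. Without both control 1 and TO 4 it was 2.44 (SE 0.85) in the comparison of controls 2, 3 and 4 with TO 2 and 3.

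Mpo (ENSMUSG00000009350.13, chr11:87793581-87804413), myeloperoxidase of the azurophil granules, did not pass the filter of 5 read pairs in 3 of the 6 libraries. Its read pairs numbered 29, 0, 22 and 5 in controls 1 to 4 and 0, 0, 0 and 3 in TO 1 to 4. Controls 1 and 3 reached 1.27 and 0.738 CPM, whereas TO 4, the highest TO library, reached 0.0853 CPM, a level of 3 read pairs. Control 2 was at 0 as well, so the groups overlapped, and no fold change is given against TO libraries at or under the limit of a count of 0. Of the exonic bases of Mpo 14.95% are shared with the antisense gene Gm11505, and in counts without strand read pairs in that stretch cannot be assigned. Other azurophil granule genes varied in where they were counted. Elane, neutrophil elastase, had 25 read pairs in control 1, 6 in control 4, 3 in TO 3 and 0 elsewhere. Ms4a3, a gene of granulocyte precursors that is named here after its values were seen, had 9 read pairs in control 1 and 0 in the other 7 libraries. Prss57, a serine protease gene likewise named after its values were seen, had 0 read pairs in all 4 controls, 1 in TO 1 and 8 in TO 3.

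Csf3r, the receptor of the growth factor G-CSF, and Cxcr2, the receptor of the neutrophil-attracting CXC chemokines, were both above control 1, 2 and 4 in TO 2, 3 and 4. Csf3r (ENSMUSG00000028859.14, chr4:126024550-126044440) stood at 4.42, 3.74, 3.76 and 3.23 CPM in controls 1 to 4 and at 8.27, 8.76 and 8.96 CPM in TO 2, 3 and 4. The groups did not overlap, and TO 1 held 1 read pair (3.43 CPM, interval 0.0869 to 19.1 CPM). Its log2 fold change of 1.19 (SE 0.24) was smaller than those of S100a8, S100a9, Mmp8, Mmp9, Retnlg and Cxcr2, with the smallest SE of the 9.

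Cxcr2 (ENSMUSG00000026180.8, chr1:74153989-74161246) was counted in few read pairs, 1, 14, 36 and 9 in controls 1 to 4 and 22, 86 and 98 in TO 2, 3 and 4. These gave 0.0438, 0.455, 1.21 and 0.364 CPM in the controls and 0.636, 3.55 and 2.79 CPM in the TO libraries. Control 3, which the first fit did not hold, lay above TO 2. The log2 fold change of Cxcr2 was 2.96 (SE 0.85) in 6 libraries and 2.13 (SE 0.85) with control 3 added.

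The members differed in how far the lungs of a group lay apart. Among TO 2, 3 and 4 the highest library exceeded the lowest 5.08-fold for S100a9, 4.41-fold for Retnlg and 3.79-fold for S100a8, but 1.67-fold for Mmp9 and 1.08-fold for Csf3r. Among the 4 controls the same ratio was 2.33 for S100a9, 2.52 for Retnlg, 2.10 for S100a8, 1.90 for Mmp9 and 1.37 for Csf3r. The CPM of S100a9 relative to that of Csf3r was 1.98 to 3.49 in the controls, 1.47 in TO 2, 4.84 in TO 3 and 6.89 in TO 4. TO 4 was the highest deep library and TO 3 the second highest for S100a8, S100a9, Mmp8, Csf3r and Retnlg, and control 4 was the lowest deep library for 7 of the 9 tested members.

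Over all 10 members the summed level was 50.8, 36.5, 37.6 and 23.7 CPM in controls 1 to 4, and 60.4, 122 and 172 CPM in TO 2, 3 and 4. In TO 1 it was 103 CPM, from 30 read pairs. Ngp, Camp and Mpo together held 28.4% of the sum in control 1 and between 11.0% and 16.4% in the other controls. In TO 2, 3 and 4 they held 14.6%, 7.75% and 11.6%. S100a8 and S100a9 held 38.3% to 60.0% of the sum in TO 2, 3 and 4 and 44.0% to 59.1% in the controls.

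**Figure D2:**
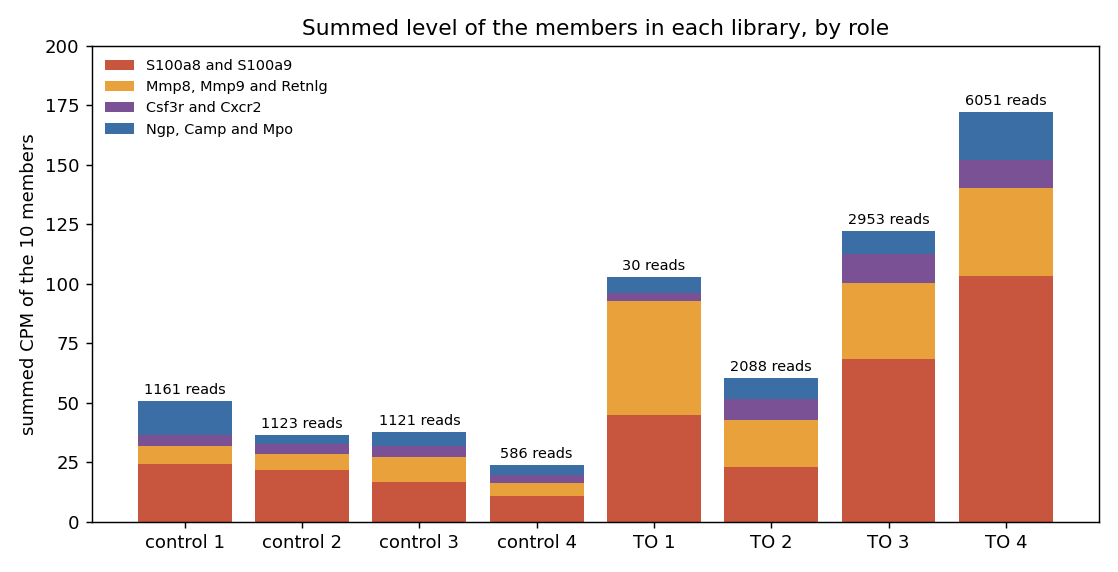
Summed CPM of the 10 genes in each library, stacked by role, with the number of read pairs behind each bar written above it. The 4 controls reach 23.7 to 50.8 CPM and TO 2, 3 and 4 reach 60.4 to 172 CPM; the bar of TO 1 rests on 30 read pairs.

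In the quasi-likelihood test of edgeR on 6 libraries, 0 of 21859 genes had an adjusted p under 0.1 (0% called), and 0 of the 9 members. At an unadjusted p under 0.05, 7 of the 9 members were higher in TO, beside 3.07% of all genes tested, the exceptions being Ngp and Camp. DESeq2 called 5 members (Mmp9, Mmp8, S100a8, Csf3r and Retnlg) as higher in TO, beside 0.183% of all genes, and 3 of 10 in all 8 libraries (Mmp9, S100a8 and S100a9), beside 0.031%. Limma-voom called 0 members and 0 genes, with 6 members and 3.22% of genes higher at an unadjusted p under 0.05. Groups did not overlap, with TO higher, for 5 of the 9 members in the 6 libraries (5.06% of all genes tested) and for 4 of the 10 in the 7 deep libraries (2.26%). Without TO 4 edgeR called 144 of 20801 genes and 2 of the 9 members, and without control 4 it called 52 of 21094 genes and 0 members. Since the members were chosen on this contrast, nothing is read from these counts. The median log2 fold change of the 9 members was 1.82, and that of all genes tested was -0.0045. It was 1.32 without TO 4 and 2.19 without TO 2, and all 9 members were above 0, beside 49.3% of all genes.

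**Figure D3:**
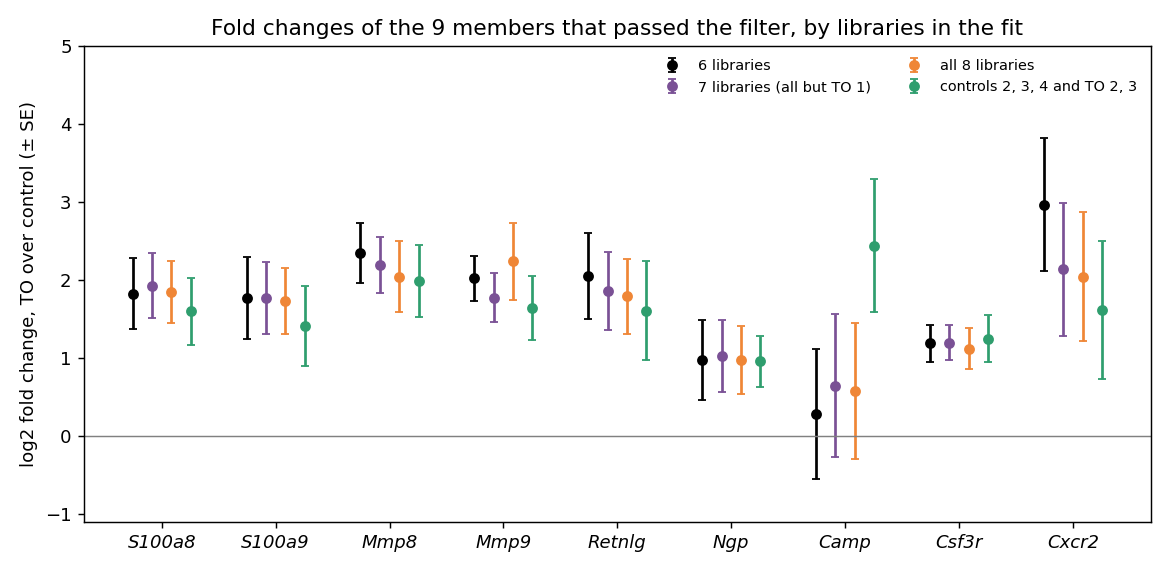
Log2 fold change of TO over control for the 9 members that passed the filter, from edgeR, with bars of 1 SE, in 4 choices of libraries given by colour; the choice in green was made after seeing the data. Camp is the member that moves most, from 0.28 in the 6 libraries to 2.44 in controls 2, 3 and 4 against TO 2 and 3.

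Levels of different genes were compared as TPM, the transcript share that takes the exon length of each gene into account. In the 4 controls the order of the mean levels was S100a9 at 77.3 TPM, S100a8 at 35.3, Ngp at 16.3, Retnlg at 12.4, Camp at 4.21, Mmp8 at 3.96, Csf3r at 3.73, Mmp9 at 2.78, Cxcr2 at 0.594 and Mpo at 0.579 TPM. The ranges of neighbours in this order overlapped, except those of Mmp9 and Cxcr2. In TO 2, 3 and 4 the order was S100a9 at 267 TPM, S100a8 at 136, Retnlg at 45.7, Ngp at 33.2, Mmp8 at 18.3, Mmp9 at 9.59, Csf3r at 8.58, Camp at 6.45, Cxcr2 at 2.74 and Mpo at 0.0298 TPM. Neighbours overlapped here too, except Camp with Cxcr2 and Cxcr2 with Mpo. S100a9 and S100a8 led in both groups. The place of Camp in the controls rested on control 1, at 13.0 TPM, since the other controls were at 0.614 to 2.15 TPM, below the lowest control of Mmp9 at 2.22 TPM.

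**Figure D4:**
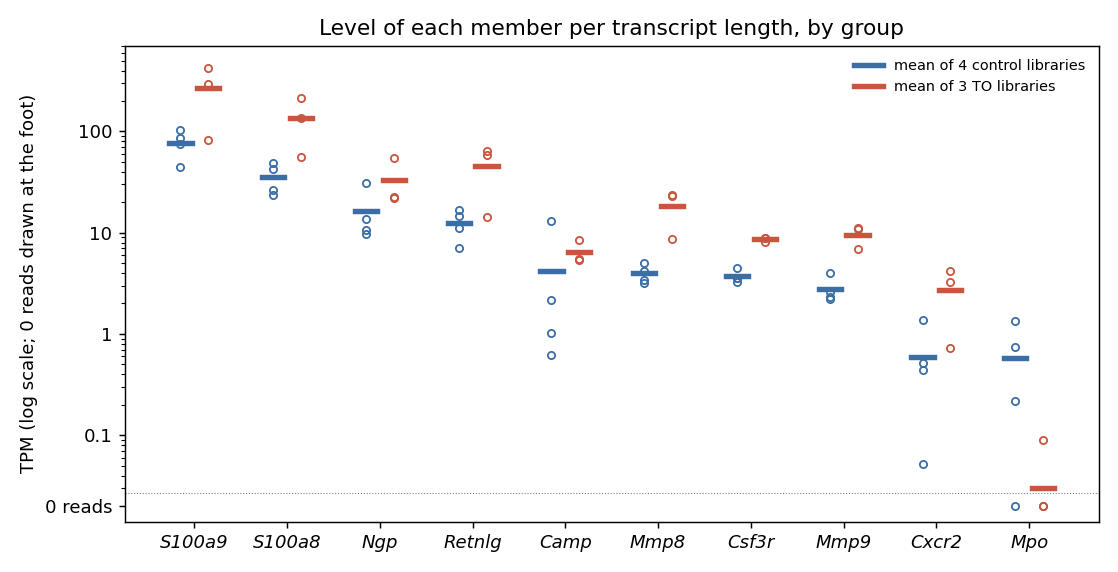
Level of each gene per exon length in TPM (log scale), in the order of the control means, with circles for the 4 controls in blue and TO 2, 3 and 4 in red and bars for the group means; TO 1 is not drawn and libraries with 0 read pairs are at the foot. S100a9 leads in both groups, with means of 77.3 and 267 TPM.

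The other genes of the neutrophil programme were read from 5 lists with 60 genes, of which 49 were tested in the 6 libraries. In edgeR 0 of the 49 had an adjusted p under 0.1. At an unadjusted p under 0.05, 13 were higher and 0 lower in TO, beside 3.07% and 2.07% of all genes tested. DESeq2 called 3, namely Lcn2, Il1r2 and Cebpd, beside 44 of all 21859 genes, and limma-voom 0. The median log2 fold change of the 49 was 0.62, and 44 of them were above 0, beside 49.3% of all genes tested. These lists too were chosen with earlier results of these data known, so nothing is read from these counts. Without TO 4 edgeR called 3 of the listed genes. Every other setting was compared for the named genes of these lists only. Among these, the signs of Prtn3, Csf2, Ppbp, Ncf1, Cyba and Cxcr4, none of them called, turned under at least 1 other setting. Of the genes not named by the rule, Clec4e, Fpr2, Runx1 and Cebpe changed sign when control 3 was added.

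In the azurophil granule list 2 of 6 genes could be tested, and they differed in sign. Prtn3, proteinase 3, averaged 0.918 ± 0.121 CPM (SD, n = 3) in the controls and 0.405 ± 0.109 CPM in TO, with a log2 fold change of -1.18 (SE 0.64, edgeR adjusted p = 0.907). Control 3 had 0 read pairs of Prtn3, below all of these TO libraries, and with it added the log2 fold change was -0.76. Serpinb1a, an inhibitor of these proteases with close relatives in the genome, had a log2 fold change of 0.49 (SE 0.26, edgeR adjusted p = 0.907). Ctsg, cathepsin G, had 4 read pairs in control 1, 3 in TO 3 and 10 in TO 4.

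All 13 genes of the specific and gelatinase granule list were tested, and all 13 were above 0, with a median log2 fold change of 0.62. Lcn2, the iron-binding lipocalin that lung epithelium also makes, stood at 8.71, 8.10, 11.0 and 6.79 CPM in controls 1 to 4 and at 22.9, 39.6 and 21.9 CPM in TO 2, 3 and 4. Its log2 fold change of 1.83 (SE 0.25) came with an adjusted p of 0.372 in edgeR and of 4.6e-08 in DESeq2. Ltf, lactoferrin, stood at 3.86 to 9.89 CPM in the controls and 12.0 to 21.5 CPM in TO 2, 3 and 4, with a log2 fold change of 1.12 (SE 0.32, edgeR adjusted p = 0.907). The most abundant genes of the list, which other lung cells also use, differed less in edgeR, with log2 fold changes of 0.46 (SE 0.26) for Hp, haptoglobin, and 0.049 (SE 0.15) for Cyba and 0.53 (SE 0.31) for Ncf1, both of the NADPH oxidase.

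Of the 20 surface and signalling genes 17 were tested, and all 17 were above 0 in the 6 libraries (median log2 fold change 0.74). With control 3 added, Fpr2 was at -0.35 and Clec4e at -0.13. Il1r2, the decoy receptor of interleukin 1, was the furthest apart. It had 3, 8, 39 and 3 read pairs in controls 1 to 4 and 10, 100 and 120 in TO 2, 3 and 4, with a log2 fold change of 3.87 (SE 0.94, edgeR adjusted p = 0.907). Control 3 at 1.31 CPM lay above TO 2 at 0.289 CPM, as for Cxcr2. Csf2rb, the shared receptor chain of GM-CSF, interleukin 3 and interleukin 5, which has a near-identical neighbour in the mouse, stood at 8.13 to 10.7 CPM in the controls and at 13.0 to 16.9 CPM in TO 2, 3 and 4, with a log2 fold change of 0.68 (SE 0.20, edgeR adjusted p = 0.907). The abundant genes Mxd1, Cxcr4 and Hdc gave log2 fold changes of 0.25, 0.14 and 0.54. With control 3 added these were 0.035, 0.13 and 0.44, and control 3 at 94.9 CPM of Mxd1 lay above TO 2, 3 and 4.

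Among the 8 regulators of granulopoiesis 6 were above 0. Cebpd averaged 60.2 ± 5.01 CPM in the controls 1, 2 and 4 and 110 ± 39.4 CPM in TO, with a log2 fold change of 0.86 (SE 0.23, edgeR adjusted p = 0.907, DESeq2 0.0688). Control 3, at 158 CPM, was above all 3 of these TO libraries. Cebpa, which lung epithelium also expresses, and Cebpb had log2 fold changes of 0.33 (SE 0.22) and -0.25 (SE 0.11). Csf1r, the receptor of macrophage growth factor, had a log2 fold change of 0.44 (SE 0.14, edgeR adjusted p = 0.907). Csf1r also stands in the macrophage and monocyte list below, so it is counted in both lists.

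Of the 13 ligands 9 were tested. Csf3, the ligand of Csf3r, had 2 and 8 read pairs in controls 1 and 2, 3 in TO 3 and 0 in the other 5 libraries, and it is named here after its values were seen. Cxcl5, a ligand of Cxcr2, had 0 read pairs in all 4 controls and 26, 12 and 14 in TO 2, 3 and 4. Its mean in these TO libraries, 0.549 CPM, was at least 14.3-fold higher than the level of 3 read pairs over controls 1, 2 and 4 together, with an edgeR adjusted p of 0.907. Cxcl15, a chemokine of lung epithelium, was far more abundant, at 509 ± 132 CPM (SD, n = 3) in the controls and 893 ± 543 CPM in TO, with TO 4 at 325 CPM below every control. Cxcl12 had a log2 fold change of 0.092 (SE 0.12), while Csf2 and Ppbp were below 2.1 CPM in every library.

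**Figure D5:**
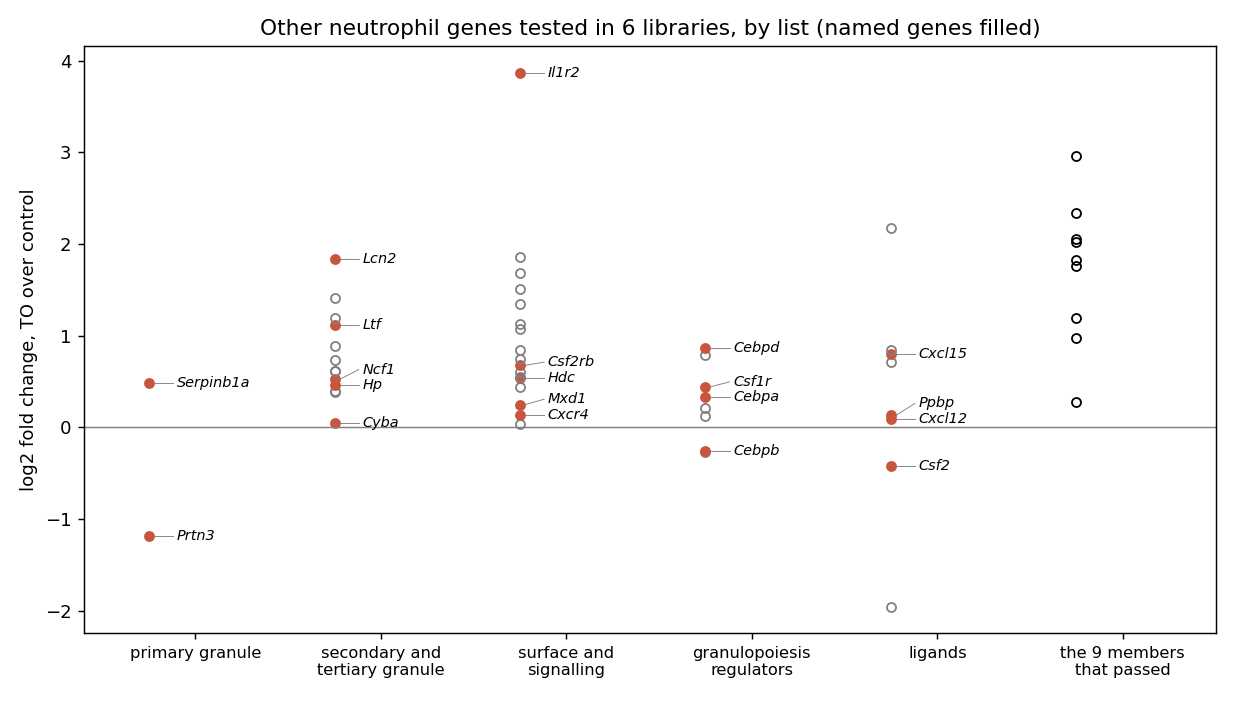
Log2 fold changes of TO over control in 6 libraries (edgeR) for the tested genes of the 5 lists and, at the right, the 9 tested members, with a point for each gene and named genes filled; Cxcl5, at 0 in every control, is left out. All 13 genes of the specific and gelatinase granule list and all 17 of the surface and signalling list lie above 0, with Lcn2 at 1.83 and Il1r2 at 3.87. Control 3 is not in this fit, and with it added Fpr2 and Clec4e of the surface list fell below 0.

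Markers of other cells were read beside these values. All 10 macrophage and monocyte markers had log2 fold changes above 0, with a median of 0.64, and their sum was 146 to 163 CPM in the 4 controls and 180 to 271 CPM in TO 2, 3 and 4, without overlap. The 4 tested of 5 platelet markers were also all above 0, and their sum was 13.7 to 20.01 CPM in the controls and 24.7 to 28.1 CPM in TO 2, 3 and 4. The 6 pan-leukocyte markers summed to 224 to 306 CPM in the controls and 278 to 314 CPM in TO 2, 3 and 4, with overlap. The sums of the mast cell, basophil and eosinophil list (5.59 to 11.0 CPM against 9.52 to 14.5 CPM), of the lymphocyte list (7.88 to 11.3 CPM against 8.05 to 11.9 CPM) and of the erythroid list (3201 to 5088 CPM against 2990 to 4875 CPM) overlapped, as did those of the cardiomyocyte list (484 to 4968 CPM against 2248 to 5590 CPM) and of the mesenchyme and endothelium list (3554 to 3829 CPM against 3212 to 3712 CPM). Log2 fold changes were also above 0 for all 6 pan-leukocyte markers (median 0.28) and all 6 cardiomyocyte markers (median 1.19). The same held for 4 of 5 tested mast cell, basophil and eosinophil markers (median 0.73). In the other lists it held for 4 of 6 tested lymphocyte, 4 of 8 erythroid, 4 of 8 hepatocyte, 5 of 9 lung epithelium and 1 of 6 mesenchyme and endothelium markers. The part of these cells in the members' values was not tested. Without the libraries richest in hepatocyte transcripts, control 1 and TO 4, the median log2 fold change of the 9 members was 1.60. S100a8 was then at 1.60, S100a9 at 1.41, Mmp8 at 1.98, Mmp9 at 1.64, Retnlg at 1.60 and Cxcr2 at 1.61, each lower than in the 6 libraries. Csf3r, at 1.25, and Camp, at 2.44, were higher.

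The genes most like the members were sought by Pearson's r between log2 CPM and the mean z-score of the 9 tested members over the 7 deep libraries, among 15871 genes with a mean of at least 1 CPM. The 10 genes with the highest r, from 0.989 to 0.929, were Gda, Gm17655, Ifitm6, Gm12966, Slc37a2, Gm5165, Arhgap30, Pstpip2, Olfm4 and Mllt11. The libraries share their group contrast and depth, 7 points are few, and the likeness is a description only. Gda, guanine deaminase, stood at 3.64 to 6.92 CPM in the controls and at 7.57, 11.8 and 14.1 CPM in TO 2, 3 and 4. Ifitm6, an interferon-induced membrane protein gene, stood at 0.162 to 1.49 CPM in the controls and at 1.56, 3.18 and 8.50 CPM in the same TO libraries. Olfm4, of the specific granules, is also in the granule list, and stood at 2.67 to 6.52 CPM in the controls and at 6.27, 13.1 and 22.4 CPM in TO 2, 3 and 4. When TO 1 was included, 4 of the 10 genes remained among the 10 most alike.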

How the data were processed

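Total RNA from each of the 8 lungs was barcoded by NexteraXT and paired-end sequenced. After STAR alignment to GRCm38, the authors deposited raw counts of read pairs on each gene: a strandless column, used here, and a column for each strand. DESeq2 is named in the submitters' notes, and tool versions are not given in the sources used here. Symbols, coordinates and exon lengths came from GENCODE M21, whose IDs matched 54487 of 55385 with and 55144 without version. Depth was 270078 to 35002061 read pairs on genes. Shares of read pairs without a gene were 23.1% to 27.1%, and stayed out of library sizes.

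Genes with at least 5 read pairs in 3 of 6 libraries were tested with edgeR 4.0.16 (quasi-likelihood, TMM, Benjamini-Hochberg, threshold 0.1), in R 4.3.3. The study's count model was DESeq2, used here as an alternative (1.42.0), beside limma-voom (3.58.1), other scaling, filters, libraries, strand columns and a replicate block. CPM used TMM factors of all 8 libraries, and log2 CPM a prior count of 2. The fit was tested on simulated data. Figures were drawn with Python 3.11.15 and matplotlib 3.10.9.

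The 10 members and all lists were chosen with earlier results of these data known. Named were all members, from each list any gene called and otherwise the 4 most abundant and the 2 with the smallest p, and the 10 genes most like the members; others are said to be named after their values were seen. Intervals cover counting error only, since read pairs carry no molecular identifiers.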

Additional observations from a re-analysis of the deposited data

Results flagged for a closer look

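In 50 groups of 4 libraries (the 10 members and the marker and gene lists, each in control and in TO), 9 had a highest or lowest library whose gap to the nearest other exceeded Dixon's 95% critical value for the size of the group. Chance does this in about 1 of 20 groups of normal values with equal spread. These groups share libraries, every TO group holds the shallow TO 1, and some rest on few read pairs. The 9 are therefore not set against that rate. TO 1 was the library apart in 5 of them. Mmp9 was at 44.6 CPM there, from 13 read pairs, with the nearest TO library at 11.2 CPM. Csf3r was at 3.43 CPM in TO 1, from 1 read pair, with the nearest TO library at 8.27 CPM. The summed lists that were highest in TO 1 were the azurophil granule list at 27.5 CPM (nearest 6.996 CPM), the mast cell, basophil and eosinophil list at 130 CPM (nearest 14.5 CPM) and the lymphocyte list at 165 CPM (nearest 11.9 CPM).

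Control 1 stood apart in Camp, at 2.71 CPM with the nearest control at 0.445 CPM, and in the hepatocyte list, at 882 CPM with the nearest control at 26.1 CPM. TO 4 stood apart in Ngp, at 18.6 CPM with the nearest TO library at 7.69 CPM, and in Mpo, at 0.0853 CPM from 3 read pairs with 0 in the other TO libraries.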

How the results depend on the processing

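The median log2 fold change of the tested members kept its sign and moved by less than the spread in every alternative run, between 1.32 and 2.19. Counts of calls at an adjusted p under 0.1 moved more. Against 0 genes, 0 members and 0 listed pathway genes in edgeR, DESeq2 called 44 of 21859 genes, 5 of 9 members and 3 of 49 pathway genes. Without a filter on low counts edgeR called 40 of 31384, 4 of 10 and 3 of 57. DESeq2 on all 8 libraries, added after seeing the data, called 7 of 22545, 3 of 10 and 1 of 50. Leaving out 1 library at a time gave 0 to 144 genes, 0 to 2 members and 0 to 3 pathway genes, the highest counts of each without TO 4, and 52 genes without control 4. The cause was not tested. Replicate numbers are shared between the groups, but nothing says that they pair lungs: deviations from the group means correlated at 0.10 for control 2 with TO 2 and at 0.048 for control 4 with TO 4 in the 6 libraries, and in all 8 at 0.058, 0.13, 0.16 and 0.073 for numbers 1 to 4. Controls 2, 3 and 4 correlated best with their own number there, and control 1 with TO 4 (0.093). In the 6 libraries control 4 correlated more with TO 3 (0.061) than with TO 4, and control 1 with TO 4 reached 0.13, above both same-number pairs. No pairing is read from these values. With the replicate block edgeR called 219 of 21859 genes, 5 of 9 members and 2 of 49 pathway genes in the 6 libraries. In all 8 it called 3 of 22545 genes, 0 of 10 members and 1 of 50 pathway genes. Ngp, at a log2 fold change of 1.77 (SE 0.34), was among the 5 members called with the block in the 6 libraries. Changes of sign were sought for the members and the named pathway genes only, and edgeR had called 0 genes in the 6 libraries. Camp was the member whose sign reversed, at -0.21 without control 2 and -0.095 without control 4. The others were pathway genes: Ppbp at -0.52 and Csf2 at 0.15 in the first strand column, Prtn3 at 0.11 and Csf2 at 0.20 in the second, Ncf1 at -0.0059 and -0.020 with the replicate block in 6 and in 8 libraries, and Ppbp at -0.35 and Csf2 at 0.34 without control 1, TO 4 and TO 1. With 1 library left out, Ppbp ran from -1.11 to 0.82 (below 0 without control 2 or TO 4), Cyba from -0.088 to 0.15 and Cxcr4 from -0.075 to 0.33 (both below 0 without control 4 or TO 2). In CPM in place of TPM, 3 of the 10 members kept their place in the order of levels, and with all 8 libraries 4 of the 10 genes most like the members were shared. Members with under 100 read pairs in a library, chiefly Camp, Cxcr2 and Mpo, are limited by depth, and in TO 1 no member had more than 13 read pairs.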
